A study of Mus musculus with 6 samples.

Results

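Gene expression on day 5 of embryoid body differentiation was compared between cells induced to make miR-200c and miR-141 and the same cells left untreated. Members of the comparison were the genes whose intensities lay 2-fold or more apart on the 2 day 5 arrays, 350 of the 18193 genes measured. Of these, 197 were higher and 153 were lower in the induced embryoid bodies. Genes that define pluripotent cells and germ layers made up 18 of the higher and 18 of the lower genes. The account below is mainly about the other 179 and 135. Where a group below also holds germ layer genes, such as Fgf5, Fgf8, Fgf15, Cd44, Ramp2 and Ets1, they are counted in it. All cells came from A2.miR200c, a mouse embryonic stem (ES) cell line derived from A2lox cells, in which the miR-200c/miR-141 genomic cluster stands behind a doxycycline-inducible promoter. ES cells were kept on irradiated fibroblast feeders, passaged once without them, and then grown as embryoid bodies in suspension in medium with fetal calf serum. The induced embryoid bodies received 500 ng/mL doxycycline on days 2 and 4, and the untreated ones received none. RNA was taken on days 3, 4 and 5, with 1 Affymetrix MOE430 2.0 array for each treatment and day, 6 arrays in all. No group was replicated, so the values carry no error and no test was possible. The line is a single engineered line, and no doxycycline-treated line without the inducible microRNAs was on the arrays, so an effect of doxycycline itself cannot be told apart from that of the microRNAs.

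MicroRNAs of the miR-200 family bind messenger RNAs through the bases near their 5′ end, called the seed, and lower the target's stability and translation. Their best known targets are the transcription factors Zeb1 and Zeb2, which bind E-box letters in the promoters of epithelial genes and repress them. High miR-200 therefore goes with an epithelial state and its loss with the epithelial-to-mesenchymal transition through which mesoderm forms. The mature sequences of the induced pair are shown because the seed fixes which messages each can bind. They are from RefSeq (GRCm38.p6, minus strand, 5′ to 3′), at chr6:124718324-124718346 for miR-200c-3p and chr6:124717917-124717938 for miR-141-3p, with the seed (bases 2 to 8) in capitals.
mmu-miR-200c-3p: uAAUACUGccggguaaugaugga
mmu-miR-141-3p: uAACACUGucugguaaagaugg
The seeds of this pair differ at 1 base, so the induced cluster carries both seeds of the family. The seed of miR-200c is shared with miR-200b and miR-429, and that of miR-141 with miR-200a.

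The 2 day 5 arrays had median intensities of 34.51 (untreated) and 35.37 (induced), and the median log2 difference over all genes was 0.01. All differences are induced minus untreated, of log2(intensity + 50), so those of dim genes are damped, and the folds given are taken from this scale. At 2-fold, 1.08% of all genes were higher and 0.841% were lower. Among the 11797 genes above a background intensity of 32.98 on either day 5 array, these shares were 1.67% and 1.3%. Of these brighter genes, 72.35% lay within 1.2-fold. Differences of 3-fold or more were found for 52 higher and 45 lower genes, and of 4-fold or more for 19 and 25. The untreated array was below background for 13 of the higher genes, and the induced array for 17 of the lower genes. At the 2-fold limit, Hsbp1l1 (1.0048) was just inside and Tgif1 (0.9983) just outside on the higher side, and Reck (-1.0047) and P4ha2 (-0.9954) were so on the lower side.

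**Figure D1:**
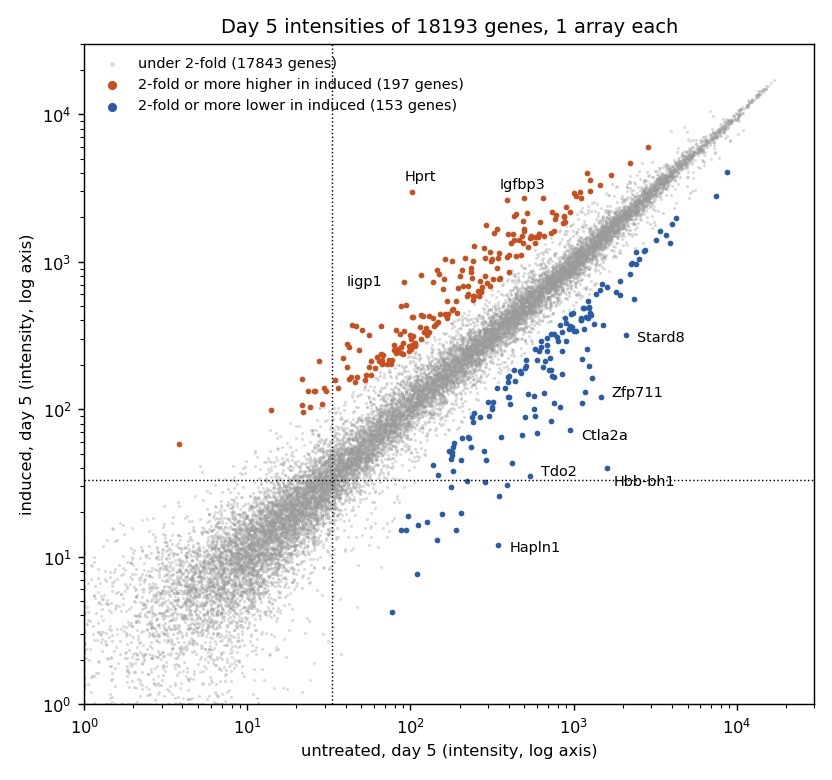
Intensity of each of the 18193 genes on the untreated (horizontal) and induced (vertical) day 5 array, both on log axes, with the background intensity of 32.98 as dotted lines. Orange points are the 197 genes 2-fold or more higher and blue points the 153 genes 2-fold or more lower in induced embryoid bodies, and most other genes lie close to the diagonal.

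Hprt, which makes a purine salvage enzyme, showed the largest difference of all genes. It measured 102 on the untreated and 2977 on the induced day 5 array, a difference of 4.31. Unlike most genes below, Hprt was already 2-fold higher on day 3, at 234 untreated and 1671 induced (2.60), the only gene so placed that day. On day 4 it measured 125 and 2539 (3.89). The cause of the Hprt difference was not tested. Cdh1 (E-cadherin) measured 3963 untreated and 7720 induced (0.95). Zeb1 measured 403 and 169 (-1.05), and Zeb2 measured 237 and 55.9 (-1.44). Of 3 further Zeb2 probe sets above background, 2 were lower, 1 of them by 2-fold or more. The ES cell and epiblast markers Pou5f1, Nanog and Sox2 were above background on both arrays and summed to 2527 untreated and 6685 induced, with 2 of 3 being 2-fold higher. Of 6 trophoblast markers measured, 2 were above background on each array, and their sum was 465 untreated and 288 induced. Plac1 (285 and 31.9, the latter below background) made up most of the first. The 6 feeder fibroblast markers summed to 346 and 168, with Twist2 at 176 and 29.5, the latter below background. Thy1, Lum and Dcn were below background on both arrays. The 7 extraembryonic endoderm markers summed to 2171 and 1534, with Sox7 2-fold lower and Afp at 10.3 and 9.68. The levels of these cells' markers thus differed between the arrays beside the genes below, and their part in the results was not tested. In bulk RNA, fewer cells of a type and less RNA per cell cannot be told apart.

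The day 5 differences were mostly not yet present on the earlier days. On day 3, 1 gene was 2-fold higher and 1 was 2-fold lower (0.0055% each), and on day 4 there were 8 higher (0.044%) and 50 lower (0.275%). Of the 197 genes higher on day 5, 160 were higher on day 4 as well, with a median difference of 0.29, but 6 of them reached 2-fold. Of the 153 lower genes, 116 were lower on day 4 with a median of -0.21, and 11 reached 2-fold. On day 3, 140 of the higher and 78 of the lower genes had the day 5 direction. Across genes above background, which are not independent replicates, Pearson's r between the arrays of a day was 0.9962 on day 3, 0.9923 on day 4, and 0.9784 on day 5.

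The course from day 4 to day 5 in each treatment shows which array moved. Among the 197 higher genes, the untreated intensity went down by 2-fold or more for 94 and the induced intensity went up by 2-fold or more for 23. Among the 153 lower genes, the untreated intensity went up by 2-fold or more for 133, and the induced intensity went down by as much for 0. The median change from day 4 to day 5 of the higher genes was -0.98 untreated and 0.02 induced, and that of the lower genes was 1.80 untreated and 0.49 induced. Since the day 5 arrays chose these genes, these counts describe them and are no test. The change from day 4 to day 5 was larger on the untreated than on the induced arrays for 159 of the higher and 143 of the lower genes.

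Other probe sets of the same genes, which the choice of members did not use, mostly had the same direction on the same 2 arrays. Among the higher genes, 72 had a further probe set above background, and 99 of their 104 further probe sets were higher, 33 of them by 2-fold or more. Among the lower genes, 138 of 140 further probe sets in 84 genes were lower, 68 of them by 2-fold or more. None was 2-fold in the opposite direction. Over all genes, 68.89% of 9140 further probe sets had the sign of the main one. Further probe sets read the same RNA, so this speaks to the probes and not to the spread between cultures.

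The genes were described by 62 lists of genes with a common function and 8 lists added after the values had been seen. Some of these lists share members with the germ layer lists. Groups whose share of 2-fold higher genes lay above that of all genes included interferon-inducible genes, membrane proteases, neurofilament and neuronal vesicle genes and genes of epithelial junctions. Groups so placed on the lower side included genes of cholesterol and fatty acid synthesis, hyaluronan, vasoactive receptors, described miR-200 targets and the BMP and TGF-beta pathway. Some lists lay above the share of all genes on the other side too, with 1 or 2 genes each. On the lower side these were neurofilament and neuronal vesicle (6.25%), claudin (4.762%) and tight junction genes (2.128%). On the higher side they were vasoactive (6.452%), fatty acid (3.226%), miR-200 target (2.222%) and TGF-beta genes (1.852%). Ribosomal protein genes and genes of oxidative phosphorylation had no member 2-fold apart, counts near the share of all genes.

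**Figure D2:**
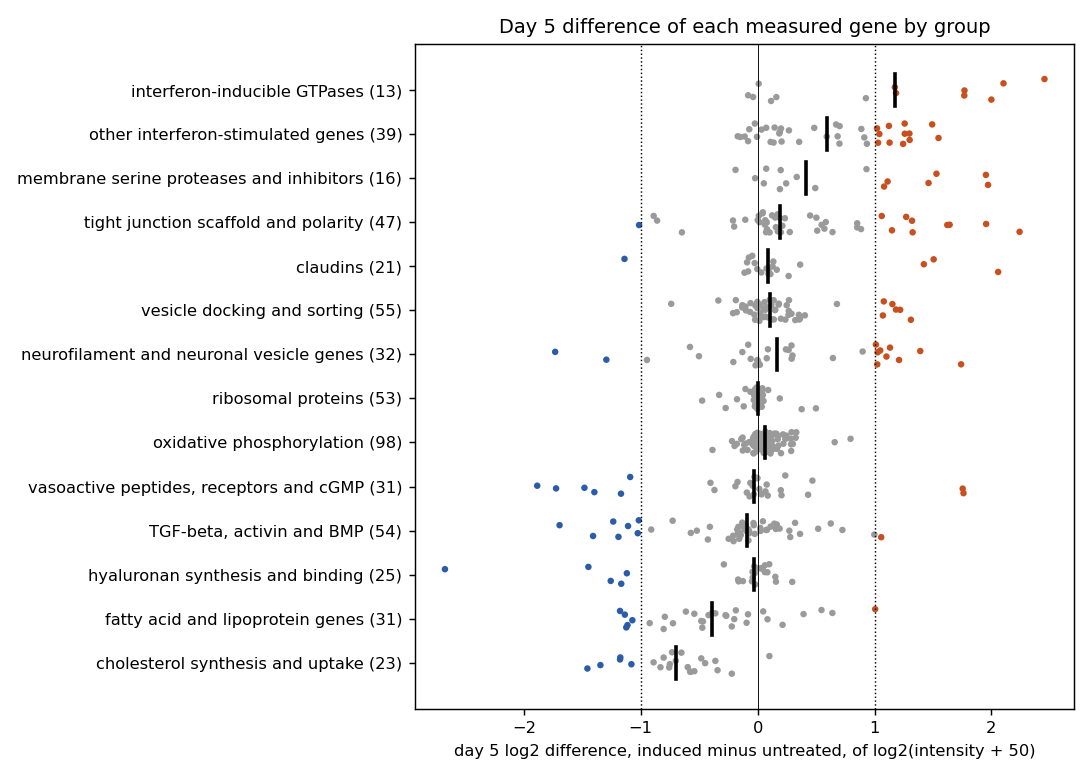
Day 5 log2 difference (horizontal) of every measured gene in 14 groups, with the number of genes in brackets, orange points 2-fold or more higher, blue points 2-fold or more lower, dotted lines at 2-fold and a black bar at each group's median. The interferon-inducible GTPases have their median at 1.17 and the cholesterol genes at -0.70, while ribosomal protein genes cluster at 0.

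Interferon-inducible GTPases, large GTP-binding proteins that act against intracellular pathogens, were the group with the highest share, with 7 of 13 measured genes 2-fold higher and 0 lower (53.85% against 1.08% of all genes). The median difference of the list was 1.17. This list was added after the values had been seen. Iigp1, of the immunity-related GTPase family, measured 91.8 untreated and 727 induced, a difference of 2.45 and the third largest among the higher genes. Gbp2b, a guanylate-binding protein, measured 324 and 1556 (2.10). Igtp measured 87.3 and 499 (2.00), and Irgm2 measured 42.2 and 265 (1.77). The guanylate-binding proteins Gbp2 (306 and 1162), Gbp3 (87.7 and 263) and Gbp7 (67.3 and 215) made up the rest. On the earlier arrays the treatments lay close together, with a list median of 0.03 on the first day and of 0.19 on the day after, when Iigp1 differed by 0.47. Both arrays moved after day 4. The untreated intensity of Gbp2 went from 710.5 on day 4 to 306 on day 5 and the induced one from 816 to 1162, and for Iigp1 these were 127 to 91.8 and 196 to 727. From day 4 to day 5, 12 of the 13 genes went up in induced and 3 in untreated embryoid bodies. Members of this family resemble one another in sequence, and whether their probes cross-react was not tested.

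A longer list of other interferon-stimulated genes, also added after the values had been seen, had 12 of 39 genes 2-fold higher (30.77%) and 0 lower. Its median was 0.59. The count ranged from 5 with a pseudocount of 100 to 19 with a floor at background and no pseudocount. Oasl2, of the oligoadenylate synthetase family, measured 21.7 and 159 (1.55), with the untreated value below background. Ly6e, a membrane-anchored protein, measured 463 and 1395 (1.49). Parp14, an ADP-ribosyltransferase, measured 34.7 and 159 (1.30), and Dtx3l, a ubiquitin ligase, measured 338 and 905 (1.30). Usp18, which removes the ubiquitin-like protein ISG15, measured 67.8 and 232 (1.26). Ifih1, a sensor of double-stranded RNA, measured 21.7 and 107 (1.13), with the untreated value below background. Cd274, which encodes PD-L1, measured 22.0 and 96.2 (1.02), with the untreated value below background. The others were Rtp4, Parp12, Tor3a, Trim12c and Erap1, with differences from 1.03 to 1.26. The untreated value of Rtp4 was below background. Not all genes of the interferon response took part at 2-fold. Mx1 and Ifit3, chosen for naming after their values were seen, stayed below background on both day 5 arrays.

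In a list of MHC class I and interferon genes, 3 of 24 were 2-fold higher (12.5% against 1.08% of all genes). At any size 22 of 24 were higher, with a median of 0.47 beside 0.01 over all genes. Irf1, a transcription factor of the interferon response, measured 899 untreated and 2363 induced (1.35). Its induced value was close to the 2422 of day 4, whereas the untreated value had been 2352 on day 4. Psmb8, a subunit of the immunoproteasome, measured 64.6 and 211 (1.19). Bst2, which tethers virus particles to the cell surface, measured 81.3 and 242 (1.15).

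Genes of the interferons, their receptors and the JAK-STAT pathway, also a list added after the values had been seen, had a median difference of -0.01. Of 24 measured, 11 were higher and 13 lower at any size. At 2-fold, 2 were higher (8.333% against 1.08% of all genes) and 0 lower. The 2 were Irf1 and Socs2, a feedback inhibitor of cytokine receptors, which measured 546 untreated and 1491 induced (1.37). Of the ligands and receptors, all chosen for naming after their values were seen, Ifnb1 (31.0 and 21.4) and Ifng (8.79 and 10.40) were below background on both day 5 arrays. The receptor chains Ifnar1 (533 and 491) and Ifngr1 (164 and 170) were within 1.2-fold.

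**Figure D3:**
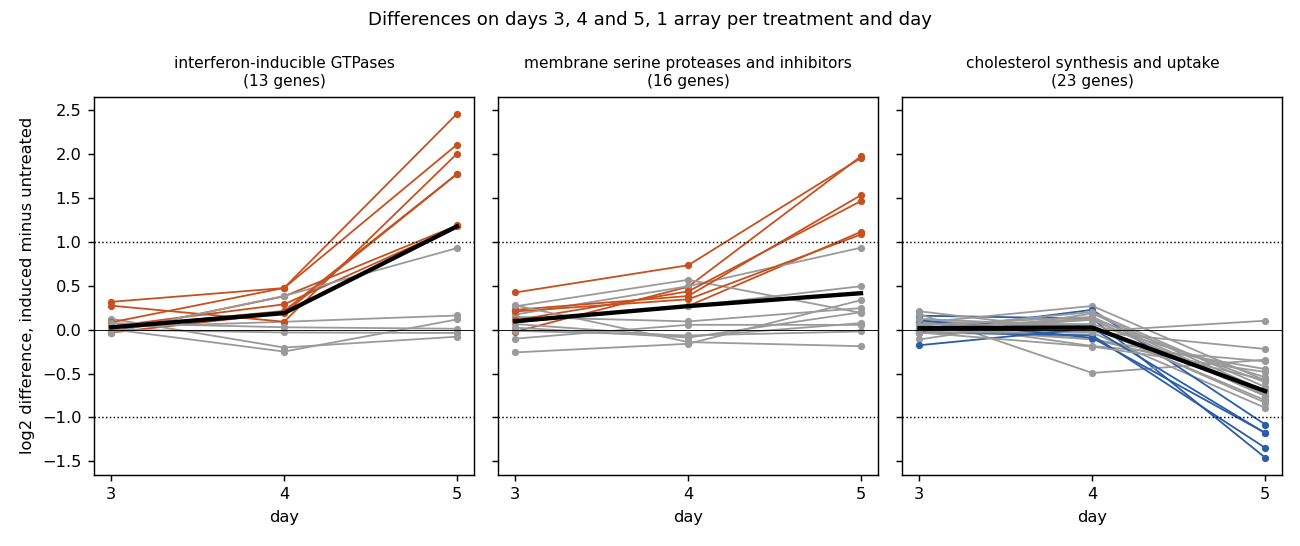
Log2 difference (vertical) on days 3, 4 and 5 (horizontal) for each gene of 3 groups, with orange and blue lines for genes 2-fold or more higher or lower on day 5, grey lines for other genes and the median in black. Medians of the interferon-inducible GTPases were 0.03, 0.19 and 1.17 and those of the cholesterol genes 0.02, 0.02 and -0.70, so both groups came apart after day 4.

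The promoters of these genes are shown because interferon response genes are known to carry common letters there, bound by the IRF and STAT factors. The interferon-stimulated response element (ISRE) was searched as a pair of GAAA runs with 2 bases between them, and the gamma-activated site (GAS) as TTCNNNGAA. Both were searched on either strand in the 250 bases before the RefSeq start. These motifs were chosen after the values had been seen. The ISRE letters were in 7 of the 7 GTPase promoters held by the table, among 3.13% of all promoters, and the GAS letters in 3 of them, among 7.42% of all. Of the 22 interferon genes that were 2-fold higher, 16 had a promoter in the table, 8 with the ISRE and 6 with the GAS. Stretches of 80 bases are given in the gene's direction (RefSeq, GRCm38.p6), with the matched letters in capitals, at chr3:142620569-142620648 for Gbp2, chr3:142559964-142560043 for Gbp3, chr3:142530248-142530327 for Gbp7 and chr11:53769888-53769967 for Irf1, all on the plus strand.
Gbp2: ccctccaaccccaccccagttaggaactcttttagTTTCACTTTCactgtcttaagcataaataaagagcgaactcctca
Gbp3: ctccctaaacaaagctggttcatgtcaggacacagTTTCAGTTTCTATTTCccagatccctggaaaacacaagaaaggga
Gbp7: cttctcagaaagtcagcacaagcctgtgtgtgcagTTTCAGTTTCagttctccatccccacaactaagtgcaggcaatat
Irf1: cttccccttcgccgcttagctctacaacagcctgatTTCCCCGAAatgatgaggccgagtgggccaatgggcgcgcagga
The 3 guanylate-binding protein promoters hold the ISRE, as 2 overlapping matches in Gbp3, and the Irf1 promoter holds the GAS. A match describes letters and is no evidence of binding.

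Genes of epithelial junctions were also found on the higher side. The list of tight junction scaffold and polarity genes also holds epithelial sorting, splicing and transcription factor genes. Of its 47 measured members, 9 were 2-fold higher (19.15%) and 1 was lower. The count of higher genes was 5 when the median over all probe sets of a gene was taken. Ap1m2, an epithelial subunit of the clathrin adaptor that sorts proteins to the basolateral membrane, measured 146 untreated and 878 induced (2.24). Esrp1, an epithelial splicing regulator, measured 520 and 2158 (1.96), and Grhl2, a transcription factor of epithelia, measured 102 and 424 (1.64). The 1 further Grhl2 probe set above background was not higher. The tight junction proteins Marveld3 (38.8 and 224), Marveld2 (137 and 419), Ocln (79.6 and 274), F11r (612 and 1548) and Cgn (127 and 319) and the recycling GTPase Rab25 (47.0 and 165) followed. Cgnl1, a relative of cingulin, went the other way with 888 untreated and 414 induced (-1.01).

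Of the claudins, the strand-forming proteins of tight junctions, 3 of 21 were 2-fold higher (14.29% against 1.08% of all genes). Cldn7 measured 217 and 1062 (2.06), Cldn6 measured 734 and 2175 (1.51) and Cldn4 measured 41.0 and 194 (1.42). Cldn11 was lower, at 93.3 untreated and 15.1 induced, the latter below background. Of 24 desmosome and adherens junction genes, 3 were 2-fold higher (12.5%) and 0 lower. They were the desmosomal cadherins Dsc2 (86.8 and 324) and Dsg2 (953 and 2170) and the membrane protein Perp (392 and 1075). At any size 20 of the 24 were higher, with a list median of 0.15 beside 0.01 over all genes. Of 48 keratins 14 were above background, and none was 2-fold apart, a count near the share of all genes. The highest was Krt19, named after its value was seen, at 1051 and 2104 (0.97).

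Membrane-bound serine proteases and their inhibitors had 6 of 16 genes 2-fold higher (37.5% against 1.08% of all genes) and 0 lower, with a median of 0.41. St14, the protease matriptase, measured 94.4 untreated and 509 induced (1.95). Its membrane-bound inhibitors Spint1 and Spint2 were higher too, at 237 and 779 (1.53) and at 1260 and 3558 (1.46). Tmprss2, another transmembrane protease, measured 102 and 271 (1.08). The list also holds the adhesion protein Epcam, at 649 and 2692 (1.97), and the matriptase substrate Cdcp1, at 73.5 and 217 (1.11). All 11 members above background were higher, with a median of 1.08. On day 4 the list's median was 0.27, and St14 already measured 287 untreated and 510 induced.

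The E-box letters CAGGTG, to which Zeb and Snail factors bind, were searched on both strands in the same promoter window. They were in 19.9% of the 14452 promoters of measured genes. Of the 2-fold higher genes 54 of 142 promoters held them (38.0%), and of the 2-fold lower genes 11 of 107 (10.3%). The 2-fold higher junction, protease and other epithelial genes numbered 21. Of these, 14 had a promoter in the table and 10 of the 14 held the E-box. No test was made of these shares, and base composition was not matched between the sets. The promoters of 4 of these genes are shown in the gene's direction, with the E-box or its reverse complement CACCTG in capitals (RefSeq, GRCm38.p6). They lie at chr11:69965287-69965366 (plus strand) for Cldn7, chr9:21312372-21312451 (minus strand) for Ap1m2, chr13:100552669-100552748 (minus strand) for Ocln and chr17:87635755-87635834 (plus strand) for Epcam.
Cldn7: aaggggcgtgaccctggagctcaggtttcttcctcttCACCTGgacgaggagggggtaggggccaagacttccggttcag
Ap1m2: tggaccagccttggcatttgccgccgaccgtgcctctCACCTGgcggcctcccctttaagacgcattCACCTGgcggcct
Ocln: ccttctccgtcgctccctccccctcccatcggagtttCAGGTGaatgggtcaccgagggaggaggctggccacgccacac
Epcam: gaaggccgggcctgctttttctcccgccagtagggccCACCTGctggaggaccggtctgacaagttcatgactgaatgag
The Ap1m2 stretch holds 2 E-boxes, and each of the others holds 1.

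**Figure D4:**
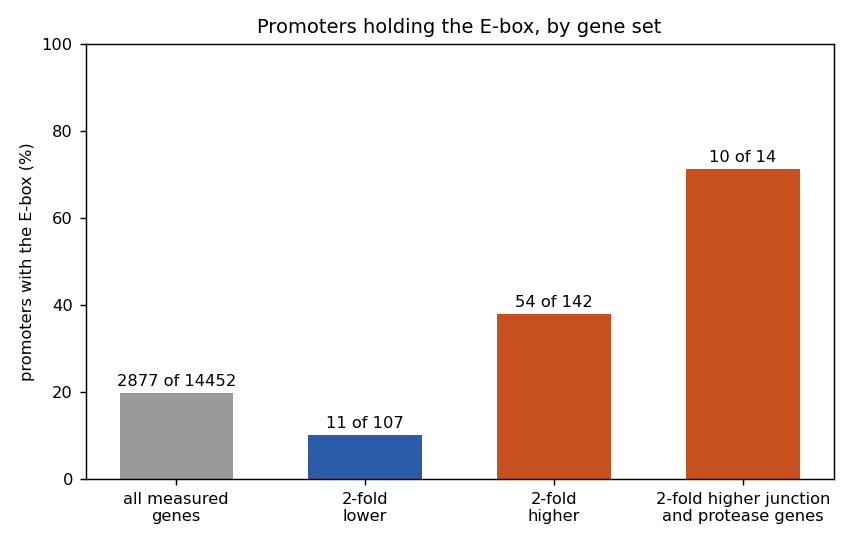
Share of promoters holding the E-box (vertical, percent) in 4 gene sets, with the number of promoters holding it out of those in the reference table above each bar. The share was 19.9% for all measured genes, 10.3% for 2-fold lower genes, 38.0% for 2-fold higher genes and 10 of 14 for the 2-fold higher junction and protease genes. The last set also holds other epithelial genes.

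Genes of vesicle docking and sorting, a list added after the values had been seen, had 6 of 55 members 2-fold higher (10.91%) and 0 lower. The share of all genes was 1.08%, and the untreated value of Chmp4c was below background. The list's 6 higher genes are named next. These were Chmp4c (23.5 and 132), a subunit of the membrane-cutting ESCRT machinery, the trafficking protein Tpd52 (1264 and 3011), the microtubule linkers Hook1 (524 and 1254) and Hook2 (116 and 300.2), and the SNARE proteins Stx3 (1707 and 3857) and Vamp8 (723 and 1574). S100 and annexin proteins, which bind calcium, had 3 of 24 higher by 2-fold (12.5%), namely S100a6 (495 and 1615), Anxa1 (163 and 445) and Anxa3 (262 and 584).

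A list of neurofilament and neuronal vesicle genes, added after the values had been seen, had 9 of 32 members 2-fold higher (28.12%) and 2 lower (6.25%). The shares of all genes were 1.08% and 0.841%. The neurofilament subunits Nefm (426 and 1540, 1.74) and Nefl (1097 and 2960, 1.39), which lie side by side in the genome, were the highest. They had been brighter on day 4, at 2629 untreated and 3227 induced for Nefm and at 4786 and 6498 for Nefl. The others were the adhesion protein Nrcam, Jakmip1, the kinesin Kif21a, the G protein subunit Gng3, the microtubule protein Stmn2, Cyfip2 and Amph, with differences from 1.01 to 1.21. The kinesin Kif21b (726 and 184) and the secreted guidance protein Reln (229 and 63.6) were lower. With a pseudocount of 100, 2 of the list were 2-fold higher.

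Receptors and ligands that guide cells and axons were found on both sides. Of 21 Eph receptors and ephrins, 3 were 2-fold higher (14.29%) and 1 was lower (4.762%), against 1.08% and 0.841% of all genes. The receptors Epha7 (196 and 661), Epha1 (30.6 and 132) and Epha2 (107 and 269) were higher and the ligand Efnb1 (1104 and 414) was lower. The untreated value of Epha1 was below background. Of 53 semaphorins, plexins, neuropilins, netrins and Slits, 4 were 2-fold higher (7.547%) and 2 lower (3.774%). The netrin Ntn1 (115 and 364) and the semaphorins Sema3e, Sema4d and Sema6a were higher. The netrin receptor Unc5c (574 and 101) and the semaphorin and VEGF receptor Nrp1 (3701 and 1515) were lower. None of the 4 higher genes was 2-fold apart when the median over all probe sets of a gene was taken. Ntn1 had been lower in induced embryoid bodies on day 4, at 256 untreated and 131 induced.

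Of growth factor systems, the insulin-like growth factor binding protein Igfbp3 had the second largest difference among the higher genes. It measured 389 untreated and 2644 induced (2.62), after 1603 and 1939 on day 4. Igfbp4, another binding protein, was lower at 3222 and 1408 (-1.17), as was the growth factor Igf2 at 8723 and 4053 (-1.10). Erbb3, a receptor for neuregulins, measured 150 and 831 (2.14), and Lrig3 of the Lrig membrane protein family measured 285 and 1069 (1.74). Among 68 genes of FGF signalling, 3 were 2-fold higher and 3 lower (4.412% each, against 1.08% and 0.841% of all genes). The ligands Fgf5 and Fgf8 and the ERK phosphatase Dusp6 (776 and 2086) were higher. The ligands Fgf15 (830 and 104, -2.52) and Fgf3 (758 and 110, -2.33) and the receptor Fgfr2 (468 and 183) were lower. Among 20 genes of PDGF and VEGF signalling, 2 were 2-fold lower (10.0%) and 1 was higher (5.0%). The receptor Pdgfrb (1126 and 218) and the lymphatic growth factor Vegfc (671 and 211) were lower and Pdgfrl (147 and 390) was higher.

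Among 54 genes of TGF-beta, activin and BMP signalling, 7 were 2-fold lower (12.96% against 0.841% of all genes) and 1 was higher. The lower genes were the inhibitory Smad6 (1340 and 379, -1.69), the ligands Tgfb2 (1267 and 446), Bmp2 (1609 and 677) and Bmp5 (301 and 113), the BMP-responsive homeobox genes Msx2 (2531 and 1046) and Msx1 (1497 and 710), and the decoy receptor Bambi (2399 and 1160). The higher gene was Fst, which binds activin, at 2227 and 4688 (1.06). Of these, Tgfb2, Msx2, Bmp2 and Msx1 were 2-fold lower on day 4 as well, with differences from -1.08 to -1.36. The day 5 count of lower genes was 4 with a pseudocount of 100 and when the median over all probe sets was taken. Among 65 Wnt genes, 3 were 2-fold higher and 3 lower (4.615% each, against 1.08% and 0.841% of all genes). The Wnt target Sp5 (627 and 1850) and the receptors Fzd5 (120.2 and 427) and Fzd6 (120.4 and 333) were higher. The receptor Fzd4 (601 and 69.1, -2.45), the inhibitor Apcdd1 (3925 and 1348) and the R-spondin receptor Lgr5 (301 and 89.9) were lower. No member of the hedgehog list was 2-fold apart, a count near the share of all genes.

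Genes of cholesterol synthesis and uptake were lower in the induced embryoid bodies almost throughout. Of 23 measured genes, 22 were lower, 5 of them by 2-fold or more (21.74%), and the median difference was -0.70. Dhcr7, which carries out the last step to cholesterol, measured 1220 untreated and 413 induced (-1.46). Lss, which forms the first sterol ring system, measured 1104 and 404 (-1.35). The sterol dehydrogenase Nsdhl measured 2246 and 967 (-1.17). The list also holds Scd1, a stearoyl-CoA desaturase of fatty acid synthesis, which is counted among the 5 and measured 2282 and 981 (-1.18). Mvd, of the mevalonate pathway, measured 509 and 214 (-1.08). Several further genes, chosen for naming after their values were seen, lay between 1.2-fold and 2-fold lower, such as Sqle (4153 and 2312, -0.83), Idi1 (5178 and 2944, -0.80) and Hmgcs1 (9085 and 6640, -0.45). The gene that was not lower was Ebp, with a difference of 0.10.

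These differences appeared between days 4 and 5, since the list's median was 0.02 on both of the earlier days. All 23 genes went up from day 4 to day 5 in the untreated embryoid bodies, by a median of 0.66, and 8 of 23 went up in the induced ones, with a median of -0.05. Dhcr7, for example, went from 447 to 1220 untreated and from 492 to 413 induced. The letters TCACNCCAC, one form of the sterol response element, were in 1 of 17 promoters of this list, that of Hmgcs1, and in 1.27% of all promoters.

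**Figure D5:**
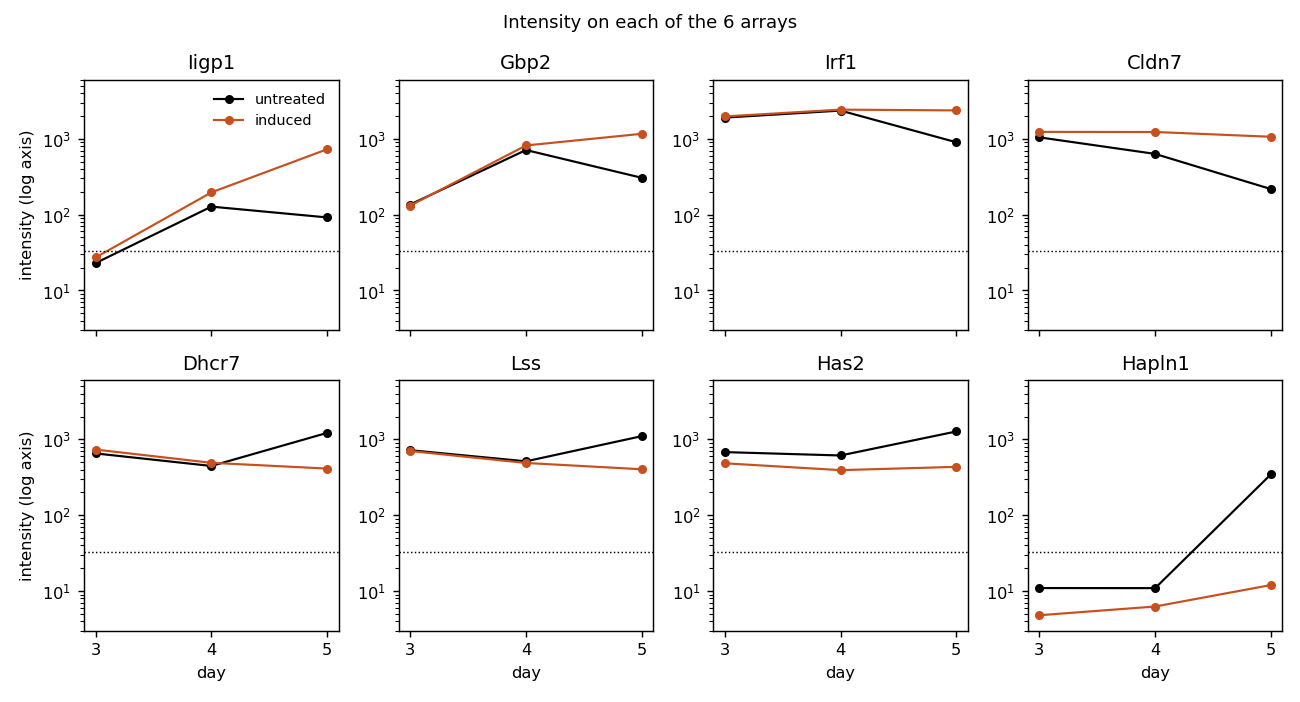
Intensity (vertical, log axis) of 8 genes on days 3, 4 and 5 (horizontal) on the untreated (black) and induced (orange) arrays, 1 array per point, with the background intensity of 32.98 dotted. Iigp1, Gbp2, Irf1 and Cldn7 are higher and Dhcr7, Lss, Has2 and Hapln1 lower in induced embryoid bodies on day 5, and for Iigp1 and Gbp2 the induced line goes up while for Dhcr7 and Lss the untreated line goes up.

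A list of fatty acid and lipoprotein genes, added after the values had been seen, had 5 of 31 genes 2-fold lower (16.13%) and 1 higher (3.226%). The list's median was -0.39. The lower genes are named first. Besides Scd1, which is on both lists, these were the lipoprotein lipase Lpl (241 and 82.3), the lipoprotein receptor Scarb1 (761 and 322), the desaturase Fads1 (1374 and 608) and Mid1ip1 (999 and 449), a regulator of fatty acid synthesis. The elongase Elovl7 (75.5 and 202) was higher. Genes of glycolysis and hypoxia were mostly slightly lower, 28 of 36 with a median of -0.13, beside 0.01 over all genes. On day 4 the list's median was 0.19. Egln3, an oxygen-sensing hydroxylase (651 and 193), and Pfkp, a phosphofructokinase (628 and 264), were 2-fold lower (5.556% of the list). Ldhb, a lactate dehydrogenase subunit (1041 and 2812), was 2-fold higher (2.778%).

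Other enzymes and transporters were higher. Alox15, a lipoxygenase that oxidises arachidonic and linoleic acid, measured 162 untreated and 1041 induced (2.36). Other higher genes of arachidonate and phospholipid metabolism were the ectoenzyme Enpp3 (46.6 and 367), the prostaglandin E2 receptor Ptger4 (26.0 and 133.6), the diacylglycerol kinase Dgkk (609 and 1475) and Elovl7. With Alox15 they made up 5 of 99 genes (5.051% against 1.08% of all genes), with 0 lower. The untreated value of Ptger4 was below background. Of 159 detoxification genes, 6 were 2-fold higher (3.774% against 1.08% of all genes) and 0 lower. They included the neighbouring metallothioneins Mt2 (411 and 1334) and Mt1 (492 and 1338), which bind zinc and copper, and the glutathione transferase Gstt2 (259.9 and 636). Both metallothioneins stood higher on day 4, at 1391 untreated and 2428 induced for Mt2. Of 361 solute carriers, 5 were higher, a share of 1.385% beside 1.08% of all genes. These were the amino acid carriers Slc7a3 (158 and 659) and Slc7a7 (485 and 1497), the iron exporter Slc40a1 (210.3 and 681), the fatty acid carrier Slc27a2 (62.0 and 227) and the choline carrier Slc44a1 (475 and 1109). The vesicular GABA carrier Slc32a1 (110 and 7.58) was lower, with the induced value below background.

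Of the remaining 15 genes with the largest higher differences, Pim2, a serine/threonine kinase, measured 290 untreated and 1788 induced (2.44). Galnt3, which starts O-linked glycans, measured 116 and 817 (2.38), and was already 2-fold higher on day 4, at 520.2 and 1152. Kcnj3, a G protein-gated potassium channel subunit, measured 43.8 and 372 (2.17). The other genes among the 15 belong to the germ layer and pluripotency lists.

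Hyaluronan genes, a list added after the values had been seen, had 5 of 25 members 2-fold lower (20.0% against 0.841% of all genes) and 0 higher. The median of the list was nevertheless -0.03. Hapln1, the link protein that ties hyaluronan to proteoglycans, measured 346 untreated and 12.03 induced (-2.68), with the induced value below background. The neighbouring proteoglycan gene Vcan measured 1238 and 489 (-1.26). Has2, the hyaluronan synthase, measured 1274 and 435 (-1.45), and Ugdh, which makes its sugar precursor, measured 2713 and 1180 (-1.17). The hyaluronan receptor Cd44 measured 1454 and 643 (-1.12). Of these, Has2 and Vcan were also lower on days 3 and 4, with day 4 differences of -0.58 and -0.90, whereas Hapln1 was below background on all 4 earlier arrays.

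Among 55 elastic fibre and matricellular genes, 5 were 2-fold lower (9.091% against 0.841% of all genes) and 2 higher (3.636% against 1.08%). Besides Hapln1, the lower genes were the fibulin Fbln2 (506 and 89.0), the fibrillin Fbn2 (661 and 129), Tgfbi (290 and 45.0) and the basement membrane protein Nid1 (825 and 370). The fibulin Efemp1 (55.7 and 319) and Frem2 (107 and 279) were higher. Of 42 collagens, Col1a1 (577 and 89.7, -2.17), which fibroblasts also make, was 2-fold lower (2.381%). Of 34 integrins and laminins, the integrin Itga4 (203 and 19.7) was 2-fold lower (2.941%), with the induced value below background. Of 120 matrix proteases and inhibitors, Mmp2 (713 and 222) was lower and Adamts9 (498 and 1676) higher, shares of 0.8333% each that lie near those of all genes.

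Genes for vasoactive peptides and their receptors, a list added after the values had been seen, had 6 of 31 members 2-fold lower (19.35%) and 2 higher (6.452%). The shares of all genes were 0.841% and 1.08%. The endothelin receptor Ednrb measured 191 untreated and 15.1 induced (-1.89), and Ece1, which activates endothelins, measured 400.2 and 121 (-1.40). Gucy1b1, a subunit of the nitric oxide receptor, measured 222 and 32.4 (-1.72). The scavenging receptor Ackr3 measured 1833 and 624 (-1.48). Ramp2 (378 and 140.3) and Calcrl (96.8 and 18.9), which together form an adrenomedullin receptor, were lower as well. Apln, the apelin peptide (200.5 and 795), and the calcitonin receptor Calcr (27.4 and 212) were higher. For Ednrb, Gucy1b1 and Calcrl the induced value was below background, and for Calcr the untreated value was.

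Among the 15 genes with the largest lower differences outside these lists, Zfp711, a zinc finger gene, measured 1474 untreated and 122 induced (-3.15). Ctla2a, a cysteine protease inhibitor, measured 951 and 72.8 (-3.03). Tdo2, which breaks down tryptophan, measured 540.3 and 35.4 (-2.79). Snai2, a transcription factor of the Snail family, measured 1304 and 162 (-2.68). Stard8 measured 2102 and 318 (-2.55), and Prkar2b, a regulatory subunit of protein kinase A, measured 1250 and 195 (-2.41). Of 33 Hox genes measured, 15 were above background. Hoxb2 (1128 and 111, -2.87) and Hoxd1 (155 and 19.3) were 2-fold lower (6.061% against 0.841% of all genes) and none was higher. The induced value of Hoxd1 was below background. On the untreated day 4 array, Zfp711, Ctla2a, Tdo2, Snai2 and Stard8 had lain between 2.63 and 84.1.

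Of 41 imprinted genes, 29 were lower at any size, with a median of -0.15 beside 0.01 over all genes. At 2-fold, 4 were lower (9.756% against 0.841% of all genes) and 0 higher. These were Mest (7483 and 2790, -1.41), Asb4 (1013 and 338, -1.46), the Notch ligand relative Dlk1 (185 and 58.7) and Igf2. Of 45 described targets of the miR-200 family, 7 were 2-fold lower (15.56%) and 1 higher. The lower genes were Ets1, Zeb2, Cfl2, Nrp1, Cdh11, Zeb1 and Reck, and the higher gene was the Notch ligand Jag1 (542.8 and 1443). Zeb2, Cfl2, Nrp1 and Cdh11 were lower in induced embryoid bodies on all 3 days, and Cfl2, a muscle form of the actin-severing protein cofilin, had a day 3 difference of -0.81 beside -0.33 for Zeb2, -0.29 for Cdh11 and -0.08 for Nrp1. The untreated intensities of Cfl2 were 1686, 1568 and 1922 in order of day, and the induced ones were 941, 833 and 743. For Ets1 and Zeb1 the day 3 difference was 0.01, and for Reck it was 0.05. The number of listed targets 2-fold lower was 4 when the median over all probe sets of a gene was taken.

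Some lists had few or no members 2-fold apart. None of 53 ribosomal protein genes, 98 genes of oxidative phosphorylation or 82 heat shock and chaperonin genes was so. Nor was any of 41 nuclear receptor genes, 13 DNA methylation genes or 33 cathepsin and lysosome genes. With 1.08% of all genes 2-fold higher and 0.841% lower, counts of 0 in lists of these sizes lie near those shares. The list medians lay between -0.04 and 0.18. At any size, 73 oxidative phosphorylation genes and 25 cathepsin and lysosome genes were higher, with 25 and 8 lower. The share of all genes higher at any size is not given here, so these counts describe the lists only. Of 48 cell cycle genes, the cyclin Ccnd2 (2222 and 827, -1.37) was 2-fold lower, 2.083% of the list. All 6 of its further probe sets were lower, and the list's median was -0.05. The 8 housekeeping genes had a median of 0.01 with none 2-fold apart.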

How the data were processed

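Gene expression was measured on 6 Affymetrix MOE430 2.0 arrays, 1 per treatment and day. The deposited values are linear intensities, which the authors normalized and modelled in DNA-Chip Analyzer (dChip) to give a single value per probe set. The dChip version and settings are not given in the sources used here, and no detection calls came with the values. The number of arrays limits the precision. Each group held a single array, so no value has a replicate error.

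Of 45037 probe sets, 34945 had a single gene symbol in the platform annotation, 932 had several and 9160 had none. For a gene with several single-symbol probe sets, the brightest on average across the 6 arrays stood for it. Differences were taken of log2(intensity + 50), and genes 2-fold or more apart were counted without a test. Background was the 95th percentile of 76 chemosensory receptor genes on the day 5 arrays. Gene lists were described by counts at 2-fold and by medians, beside those of all genes. Counts of members higher or lower at any size have no share of all genes beside them. Sequences came from the RefSeq tables (GRCm38.p6). Python 3.11.15, pandas 2.3.3, numpy 2.4.6 and matplotlib 3.10.9 were used, and the counting was tested on simulated data.

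The members and the lists were chosen with earlier results of these data known, and 8 lists and the ISRE, GAS and sterol motifs were added after the values had been seen. Genes were named by rule, as the 15 largest differences each way, members of a list counted as 2-fold apart, and marker genes, with exceptions stated. Alternatives were other pseudocounts, a floor at background, other choices of probe set, quantile normalization, centring and a filter on low values. A list of genes and its values are not reported here.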

Additional observations from a re-analysis of the deposited data

Results flagged for a closer look

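Cer1, a secreted inhibitor of Nodal, BMP and Wnt, was the only gene 2-fold or more apart in opposite directions on days 4 and 5. It measured 432 untreated and 2046 induced on day 5, a difference of 2.12 (2.1206), and 913 untreated and 226 induced on day 4, a difference of -1.80. The difference between the days was not tested, since each day had 1 array per treatment.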

How the results depend on the processing

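The count of genes 2-fold or more higher on day 5 was 197, and became 316 with a pseudocount of 16, 131 with a pseudocount of 100 and 342 with no pseudocount and a floor at background. The count lower was 153 and became 97 when the median over all probe sets of a gene was used, where the count higher was 133. Under the other alternatives the counts lay within 1.5 times of these values, from 188 to 197 higher under the other choice of probe set, quantile normalization, centring and the filter, and from 152 to 156 lower. The other pseudocounts and the floor gave 114 to 223 lower. In all 8 alternatives each of the 350 genes kept its direction. Other pseudocounts, the floor and the filter cannot reverse a direction, and centring moved each gene by only 0.01. The other choices of probe set and quantile normalization were the alternatives that could have reversed one. Of the lists, the interferon-inducible GTPases had 5 to 7 members 2-fold higher over the alternatives and the cholesterol genes 4 to 5 lower. The other interferon-stimulated genes ranged from 5 to 19 higher and the neurofilament and neuronal vesicle genes from 2 to 10. The semaphorin, plexin, neuropilin, netrin and Slit genes ranged from 0 to 5. The list of tight junction, polarity and other epithelial genes ranged from 5 to 11. Dim genes depend most on the pseudocount. No paired analysis was possible because the day 5 comparison had 1 array per treatment and so a single pair, and no array could be left out for the same reason. The arrays of days 3 and 4 were not pooled with it, since the differences varied with the day.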

Other observations

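Probe sets without a single gene symbol were not part of the counts. Of 9160 with no symbol, 16 were 2-fold or more higher and 7 lower on day 5, and of 932 with several symbols, 12 were higher and 2 lower. The largest difference among those without a symbol was 1.92, from 42.1 untreated to 298 induced.

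Of the 2-fold genes, 349 could be ordered along the chromosomes, and 22 pairs of adjacent measured genes were both 2-fold apart, 17 of them in the same direction. These included Gbp7, Gbp3, Gbp2b and Gbp2 in a row, Igtp with Irgm2, Parp14 with Dtx3l, Ocln with Marveld2 and Tmprss2 with Ripk4 on the higher side, and Fli1 with Ets1 and Stard8 with Efnb1 on the lower side. Hprt and its neighbour Plac1 went in opposite directions. Of the lower genes 11 of 152 placed lay on the X chromosome (7.237%), and of the higher genes 10 of 197 (5.076%), beside 3.406% of all genes.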
